A study of Mus musculus with 6 samples.

Results

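Heat shock proteins are chaperones that bind unfolded polypeptides and help them fold, and cells raise the inducible ones when heat, oxidants or handling damage their proteins. The 10 genes described here encode the main cytosolic chaperones, their co-chaperones and a mitochondrial pair, and were taken by symbol from the 57180 genes of the deposited count table. All 10 were found and all 10 passed the filter on low counts. They were ordered by role. The inducible forms are Hspa1a and Hspa1b (HSP70), Dnajb1 (HSP40), Hsph1 (HSP110), Hspb1 (HSP27, called HSP25 in the mouse) and Hsp90aa1 (HSP90 alpha). The constitutive forms are Hspa8 (HSC70) and Hsp90ab1 (HSP90 beta). Hspd1 (HSP60) and Hspe1 (HSP10) work together as the chaperonin of the mitochondrial matrix and are therefore not cytosolic.

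RNA was sequenced from adipose tissue macrophages of white adipose tissue, sorted on F4/80 and CD11b, from wild-type mice on a high-fat diet. The 3 HFD libraries came from mice given the diet alone and the 3 HFD+MGIG libraries from mice that also received magnesium isoglycyrrhizinate (MGIG), the magnesium salt of a glycyrrhizic acid isomer. All 6 libraries therefore share the diet. The sources used here state no strain, age, sex, dose or duration, and no number of mice behind a library, so p-values cover no more than how these libraries vary, and that variation may be technical.

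Heat shock factor 1 (HSF1) is the transcription factor that switches on the inducible forms. It is held inactive by chaperones in unstressed cells and, once released, binds repeats of the letters GAA and TTC called heat shock elements. HSP70 holds an unfolded client with the help of HSP40, which delivers it, and of HSP110, which exchanges the nucleotide that keeps it bound. HSP90 takes over clients such as kinases and steroid receptors, and small heat shock proteins such as HSP27 keep unfolded proteins from aggregating. Macrophages released from tissue by digestion are known to carry high levels of inducible heat shock transcripts together with immediate early genes.

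The promoter windows of the members are shown first because they hold the letters that HSF1 is known to bind, and because 2 gene pairs share them. RefSeq windows of the build GRCm38.p6 run from 250 bases before to 50 after a gene's start and were at hand for 7 of the 10 members, in 10 windows. Hspa8, Hsp90aa1 and Hsp90ab1 had none. The letters searched on both strands were the 2-unit elements GAANNTTC and TTCNNGAA and the 3-unit elements, which add a further GAA or TTC in the opposite direction after 2 bases and so contain and overlap the 2-unit ones. Of the 7 members, 6 held a 2-unit match in any of their windows and 3 held a 3-unit match (Hspd1, Hspe1 and Hsph1). Of all 32851 windows of that length, 15.1% held a 2-unit match and 0.603% a 3-unit match. These shares count windows, whereas the members are counted by gene and some have more than 1 window. In the stretches printed here, 5′ to 3′ on the strand of the gene, capitals mark 2-unit matches.
Hspa1a, chr17:34972247-34972266, minus strand: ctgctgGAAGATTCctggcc
Hspa1b, chr17:34959329-34959348, minus strand: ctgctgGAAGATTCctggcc
Hspb1, chr5:135887796-135887835, plus strand: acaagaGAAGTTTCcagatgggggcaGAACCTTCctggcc
Hspd1, chr1:55088053-55088082, minus strand: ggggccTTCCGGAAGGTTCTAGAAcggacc
Hspe1, chr1:55088053-55088082, plus strand: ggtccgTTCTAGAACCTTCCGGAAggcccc
Hsph1, chr5:149636282-149636306, minus strand: tgcagaTTCTGGAAAGTTCtcctca
Hsph1, chr5:149636356-149636375, minus strand: gaatctTTCTCGAAggctcg

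The Hspd1 and Hspe1 lines are the same 30 bases read from opposite strands, since the genes lie head to head on chromosome 1 and their exons overlap by 112 bases. That stretch held 3 overlapping 2-unit matches, and the other Hspd1 window held no match. The match of Hspa1a and Hspa1b lay 104 bases before the start of each gene. In Hspb1 the 2 matches began 117 and 97 bases before the start. The 3-unit match of Hsph1 began 15 or 36 bases after the start, depending on the window. Its separate 2-unit match began 54 or 33 bases before the start. Dnajb1 held none of these letters in either of its windows, which says nothing about whether HSF1 binds there.

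Hspa1a and Hspa1b are near copies. Both are genes of 1 exon on mm10 chromosome 17, Hspa1a (ENSMUSG00000091971) from 34969190 to 34972156 and Hspa1b (ENSMUSG00000090877) from 34956436 to 34959238. Their coding sequences were identical at 99.4% of aligned positions, and their promoter windows at 296 of 300. The 4 differences, counted from 1 at the 5′ end of the window with the Hspa1a base first, were C44T, T47C, T249G and C276T.

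Before the values, the libraries themselves have to be described. The HFD libraries held 14437531 to 16740374 counts each, and the HFD+MGIG libraries 2214367 to 4904167. Gene families taken as silent in macrophages (keratin-associated proteins, beta-defensins and the receptors of smell, pheromones and bitter taste, 1877 genes) took 0.0626% to 0.282% of an HFD library and 2.96% to 6.47% of an HFD+MGIG library. HFD+MGIG 2 stood apart: across genes, its log2(CPM + 1) values correlated with those of the HFD libraries at a Pearson r of 0.527 to 0.597, against 0.792 to 0.871 for HFD+MGIG 1 and 3. The 15 macrophage markers, Adgre1 (F4/80) and Itgam (CD11b) among them, were detected in both groups. They summed to 17378 to 19466 CPM (counts divided by the library total and scaled to a common depth) in HFD and to 18888, 7353 and 16420 CPM in HFD+MGIG 1, 2 and 3. Endothelial markers were detected in these macrophage libraries as well. In a bulk library, fewer cells of a type and less RNA per cell cannot be told apart.

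Of all counts, the members together took 2.41%, 2.36% and 2.78% on the diet alone (HFD 1, 2 and 3). With MGIG (libraries 1, 2 and 3) they took 2.12%, 0.887% and 2.10%. The groups did not overlap, and HFD+MGIG 2 was far below the other 5 libraries. These shares, like CPM, are of all counts. Protein-coding genes, which all members are, took 95.3%, 95.0% and 96.1% of the counts of HFD 1, 2 and 3. In HFD+MGIG 1, 2 and 3 such genes took 82.7%, 62.4% and 78.9%. The lack of overlap therefore need not hold among protein-coding counts alone. By mean CPM in HFD, Hspa1a and Hspa1b ranked 5 and 6 among all genes of the table and Hspa8 ranked 11. In HFD+MGIG they ranked 12, 14 and 16. The inducible HSP70 transcripts were thus among the most abundant in both groups.

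**Figure D1:**
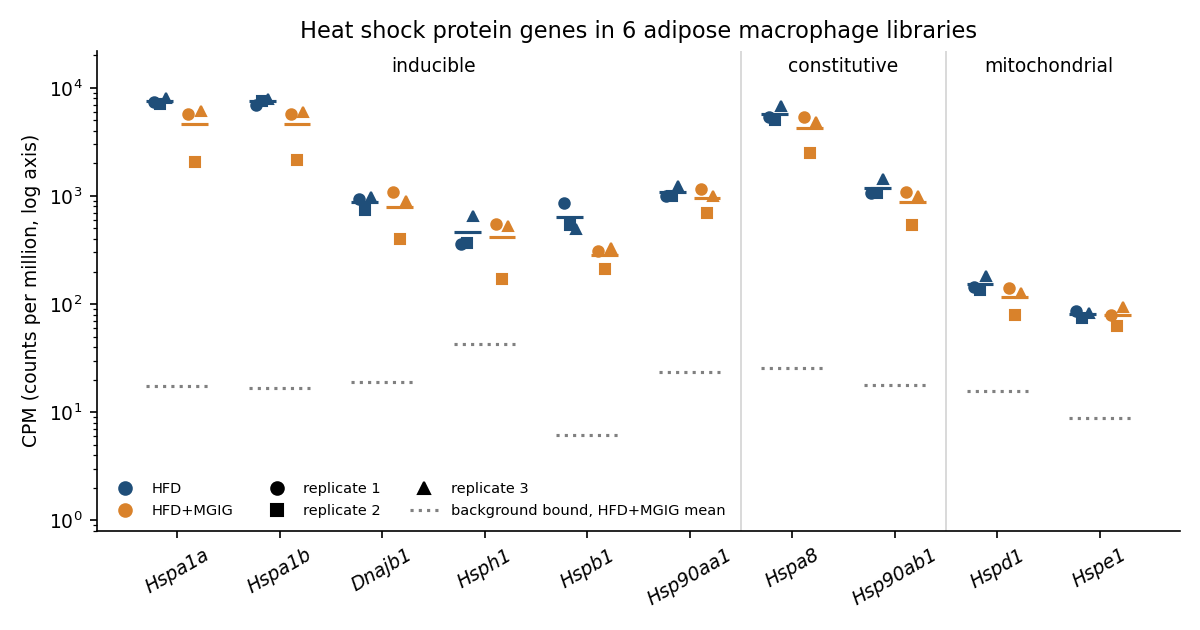
Level of each of the 10 genes in CPM on a log axis, by role, with 1 point per library (3 HFD, 3 HFD+MGIG), a bar at the group mean and a dotted line at the mean background bound of the HFD+MGIG libraries. All points lie above the bound, and HFD+MGIG 2 (orange square) is the lowest library for all 10 genes.

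The inducible HSP70 genes came first. Hspa1a had 7377, 7017 and 8059 CPM in HFD 1, 2 and 3 and 5704, 2069 and 6157 CPM in HFD+MGIG 1, 2 and 3. Hspa1b had 6909, 7586 and 7919 CPM on the diet alone, against 5747, 2162 and 5983 CPM with MGIG. For both genes every HFD library lay above every HFD+MGIG library, with a ratio of the lowest HFD to the highest HFD+MGIG level of 1.14 and 1.15. Among all filtered genes, 23.7% had HFD+MGIG libraries wholly below the HFD libraries in this way and 48.9% wholly above. Of the background-limited genes defined further on, the shares were 67.9% and 2.74%. Of the 10 members, 3 were wholly below (Hspa1a, Hspa1b and Hspb1) and 0 wholly above.

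The group means of Hspa1a were 7484 ± 529 and 4643 ± 2241 CPM (SD, n = 3), a log2 change of −0.95 (SE 0.616) that missed the threshold of 0.05 (adjusted p = 0.187, edgeR's quasi-likelihood test with Benjamini-Hochberg adjustment). Hspa1b had −0.96 (SE 0.612, edgeR adjusted p = 0.182). Without HFD+MGIG 2, the spread shrank and both passed, with −0.59 and −0.60 (edgeR adjusted p = 0.0167 and 0.0170). Limma voom also called both lower (−0.65 and −0.68, adjusted p = 0.0490 and 0.0379). The median of the background-limited genes was −0.66 without HFD+MGIG 2 and −0.77 in limma voom. Of all genes, 22.2% and 29.8% were called lower in those fits.

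Over much of their length the copies give identical reads. Of all 75-base windows of the Hspa1a transcript, 52.7% occur unchanged in Hspa1b, and the exons of Hspa1a overlap Gm20481 on the opposite strand over 564 bases. Hspa1a took 48.1% to 51.6% of the summed pair in the 6 libraries. The sum had 14286, 14603 and 15977 CPM on the diet alone, against 11451, 4231 and 12140 CPM with MGIG. Fitted as 1 gene, the pair had a log2 change of −0.96 (SE 0.637, edgeR adjusted p = 0.20).

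Dnajb1 (ENSMUSG00000005483; mm10 chromosome 8, 83608193 to 83612653) encodes the HSP40 that delivers clients to HSP70 and feeds back on HSF1. It had 932, 742 and 978 CPM on the diet alone, against 1096, 398 and 891 CPM with MGIG. The groups overlapped, with the highest and the lowest library both in HFD+MGIG. The log2 fold change was −0.41 (SE 0.530, edgeR adjusted p = 0.503).

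Hsph1 (ENSMUSG00000029657; mm10 chromosome 5, 149614287 to 149636376) encodes HSP110, the nucleotide exchange factor of HSP70. It had 359.7, 367 and 658 CPM on the diet alone, against 551, 169 and 527 CPM with MGIG. HFD 3 stood above the other HFD libraries, and the groups overlapped. The log2 fold change was −0.41 (SE 0.560, edgeR adjusted p = 0.525).

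Hsp90aa1 (ENSMUSG00000021270; mm10 chromosome 12, 110690605 to 110702728) had 1007, 993 and 1231 CPM on the diet alone, against 1149, 694 and 1005 CPM with MGIG. HFD+MGIG 1 and 3 lay within the range of the HFD libraries and HFD+MGIG 2 below it. The log2 fold change was −0.47 (SE 0.487, edgeR adjusted p = 0.402).

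Hspb1 fell with MGIG, and was the only member that edgeR called in either direction in the fit over all filtered genes. Hspb1 (ENSMUSG00000004951; mm10 chromosome 5, 135887919 to 135889563) encodes the small heat shock protein HSP27, which is also abundant in endothelium, smooth muscle and epidermis. It had 868, 542 and 491 CPM on the diet alone, against 309, 212 and 329 CPM with MGIG. The groups did not overlap, and HFD 1 was the highest library. The means were 634 ± 204 and 283 ± 62.3 CPM (SD, n = 3), 2.24 times as high in HFD. The log2 fold change was −1.44 (SE 0.467, edgeR adjusted p = 0.0187).

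Of all 23053 genes tested in that fit 60.8% were called, 17.8% lower and 43% higher with MGIG. Of the 10 members 1 was called lower and 0 higher. Of the background-limited genes defined further on, 8 members among them, 43.8% were called lower and 2.14% higher in that fit. At an unadjusted p under 0.05 the members also numbered 1. The call of Hspb1 was lost without HFD 1 (−1.25, edgeR adjusted p = 0.0765), without HFD+MGIG 3 (−1.52, 0.0647) and with the median silent-family background subtracted (−0.69, 0.140). It held in 12 of 15 alternative settings. Without HFD+MGIG 2 the count of members called lower was 3 (Hspb1, Hspa1a and Hspa1b), beside 22.2% of all genes.

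The summed markers of 5 other cell types were lower together with Hspb1, and the sums of 2 other lists were not. Endothelial markers summed to 3666, 3956 and 3516 CPM on the diet alone, against 1310, 744 and 1408 CPM with MGIG, with 20 of 21 called lower. Keratinocyte markers summed to 476, 163 and 88.3 CPM on the diet alone, against 37.4, 48.8 and 25.1 CPM with MGIG, with 6 of 8 called lower. HFD 1, the library with the highest Hspb1, was also the highest for the sums of keratinocyte, fibroblast, adipocyte and pericyte markers.

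Pericyte and smooth muscle markers (12 of 14 called lower) summed to 1475 to 2177 CPM on the diet alone, against 542 to 921 CPM with MGIG. Fibroblast markers (7 of 13) summed to 5762 to 9582 and 2786 to 4647 CPM, and adipocyte markers (11 of 12) to 4082 to 6560 and 1746 to 2597 CPM. Beside these shares stand the 17.8% of all genes and 43.8% of background-limited genes called lower in that fit. On the background-limited scale, where 6.13% of the set were called lower, the counts were 9 of 13 for endothelial, 4 of 10 for fibroblast, 1 of 4 for pericyte, 1 of 5 for adipocyte and 0 of 2 for keratinocyte markers. The median log2 fold change there was −1.07 for endothelial and −0.17 for fibroblast markers.

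The sum of the skeletal muscle markers was the other way, with 24.8 to 46.4 CPM on the diet alone, against 75.9 to 197 CPM with MGIG. By gene, 2 of 7 were called lower and 1 higher, and the median log2 fold change was −0.76. On the background-limited scale 0 of them were in the set. Markers of other leukocytes summed to 271 to 275 and 223 to 326 CPM (2 of 15 called lower and 1 higher). No gene of these lists was at 0 in all libraries of a group. The 15 macrophage markers had 0 called in either direction by edgeR, and 2 at an unadjusted p under 0.05. The part of these other cells in the Hspb1 result was not tested.

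**Figure D2:**
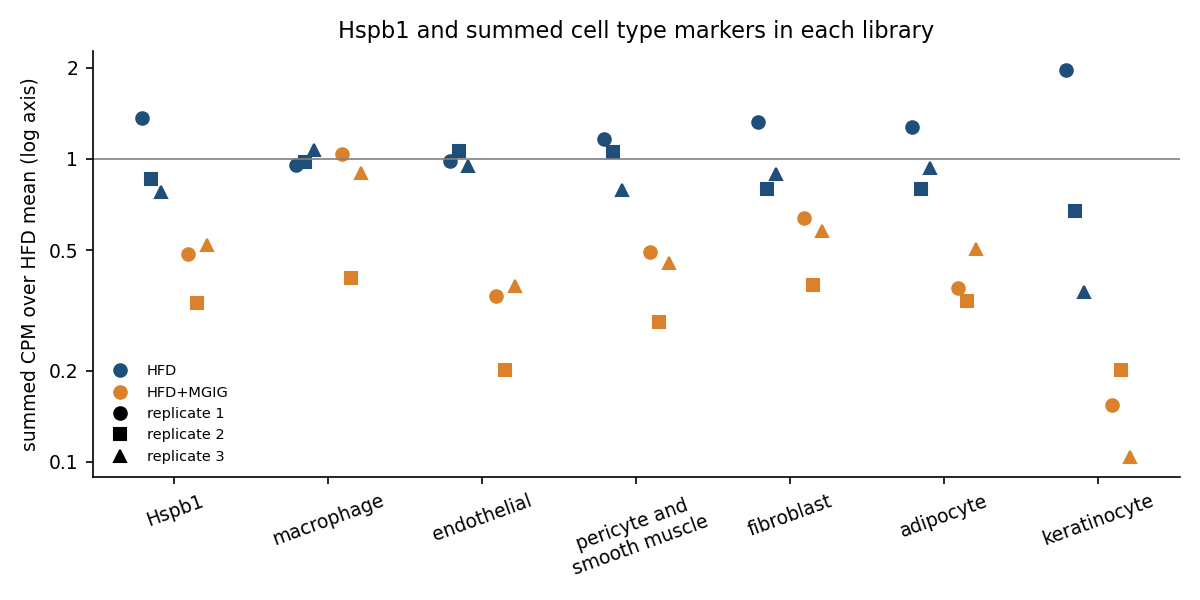
Hspb1 and the summed CPM of 6 marker lists in each library, divided by the HFD mean of that item, on a log axis (blue HFD, orange HFD+MGIG; shapes give the replicate). Hspb1 lies at 0.335 to 0.519 of its HFD mean in HFD+MGIG, endothelial markers at 0.20 to 0.379, and macrophage markers at 0.404 to 1.04.

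Of the constitutive forms, edgeR called neither, and limma voom called Hsp90ab1 lower (−0.56, adjusted p = 0.0498). In limma voom 29.8% of all genes were called lower. Hspa8 (ENSMUSG00000015656; mm10 chromosome 9, 40800984 to 40810087), the HSP70 of unstressed cells, had 5403, 5077 and 6727 CPM on the diet alone, against 5315, 2481 and 4876 CPM with MGIG. HFD+MGIG 1 lay between the HFD libraries. The log2 fold change was −0.72 (SE 0.575, edgeR adjusted p = 0.283). Hsp90ab1 (ENSMUSG00000023944; mm10 chromosome 17, 45567775 to 45573271), the HSP90 of unstressed cells, had 1055, 1057 and 1436 CPM on the diet alone, against 1097, 543 and 1002 CPM with MGIG. Its groups overlapped as well, with a log2 change of −0.71 (SE 0.513, edgeR adjusted p = 0.239).

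The mitochondrial pair had the lowest mean levels per kb of exon in both groups. Hspd1 (ENSMUSG00000025980; mm10 chromosome 1, 55077835 to 55088243) had 143, 135 and 182 CPM on the diet alone, against 141, 78.6 and 127 CPM with MGIG. Its log2 fold change was −0.69 (SE 0.403, edgeR adjusted p = 0.149). Limma voom, which called 29.8% of all genes lower, called it lower (−0.57, adjusted p = 0.0244). Hspe1 (ENSMUSG00000073676; mm10 chromosome 1, 55088132 to 55091307) had 85.8, 75.01 and 83.2 CPM on the diet alone, against 79.3, 62.3 and 93.8 CPM with MGIG. It was the member with the closest group means, 81.3 ± 5.63 and 78.5 ± 15.8 CPM, and had a log2 change of −0.34 (SE 0.333, edgeR adjusted p = 0.371).

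The log2 fold changes of these 7 members were closer to 0 without HFD+MGIG 2. The log2 fold change over all filtered genes was then −0.070 for Dnajb1, −0.027 for Hsph1 and −0.25 for Hsp90aa1. For the constitutive Hspa8 and Hsp90ab1 it was −0.42 and −0.42, and for Hspd1 and Hspe1 −0.44 and −0.16. EdgeR called none of these 7 members without that library, with adjusted p of 0.0775 to 0.937.

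Counts of 6 members could mix with reads of processed pseudogenes, intronless copies of their transcripts. Hspa8 shared 75-base windows with 10 pseudogenes, which together had 4.50 ± 1.18 CPM on the diet alone, against 31.9 ± 13.04 CPM with MGIG against 5736 and 4224 CPM for Hspa8 itself. The largest such share of windows was 64.3%, with Gm15459. For Hsp90aa1, Hsp90ab1, Hspb1 and Hspd1 the pseudogenes had 1.20 to 8.56 CPM in HFD+MGIG. Hspe1 shared windows with 1 pseudogene that was at 0 in all 6 libraries. Levels counted on the pseudogenes were therefore small beside those of the members.

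All members stood above the reads spread over silent genes. The background bound of a gene is the level it would have if it carried, over its exon length, as many counts per kb as the 90th percentile of the silent genes. In HFD+MGIG the mean bound was 17.6 CPM for Hspa1a, or 0.379% of its mean, and 25.5 CPM for Hspa8, or 0.605%. It was 10.4% of the group mean for Hsph1, 11.2% for Hspe1 and 13.6% for Hspd1. In HFD+MGIG 2 alone these genes were closer to the bound, at 2.65, 4.81 and 3.38 times its level. Every member was above its bound in 3 of 3 HFD+MGIG libraries.

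The reads on silent genes also move the scale of the comparison. A set of 2806 protein-coding genes of 2 or more exon blocks whose mean bound did not exceed 0.25 of the level itself, called background-limited here, had a median log2 fold change of −0.91 in the fit over all filtered genes. Of that set, 43.8% were called lower and 2.14% higher in that fit. Relative to this median Hspa1a and Hspa1b had −0.040 and −0.047, Hspb1 had −0.52, and the other 7 members lay between 0.20 and 0.57 above it. Fitted with TMM factors of its own, the set had a median of 0.029. This fit is called the background-limited scale, and 8 members belong to the set. Hspa1a and Hspa1b have 1 exon and were placed on its scale without being part of it.

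On the background-limited scale Hspe1 rose, with a log2 change of 0.66 (SE 0.169, edgeR adjusted p = 0.0430), against −0.34 over all filtered genes. It was the only member called there, of 8 in the set, while 10.8% of the set were called, 4.67% higher and 6.13% lower. At an unadjusted p under 0.05 were 3 members, Hspe1, Hsp90aa1 (0.52, SE 0.151, edgeR adjusted p = 0.0666) and Dnajb1 (0.47, SE 0.182, edgeR adjusted p = 0.146). Hspb1 was the 1 member of the set below 0 (−0.45, SE 0.225, edgeR adjusted p = 0.248). Its call in the fit over all filtered genes was therefore not made on this scale.

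The call of Hspe1 was a narrow one. It was made in 5 of 16 alternative settings, with DESeq2 (0.65, adjusted p = 0.0110) and limma voom (0.61, adjusted p = 0.0190) among them. Its edgeR adjusted p was 0.120 without HFD 1, 0.166 without HFD 2, 0.115 without HFD 3, 0.0545 without HFD+MGIG 2 and 0.119 without HFD+MGIG 3. It was 0.149 with trends on GC content and transcript length removed, where the log2 fold change was 0.36. With the replicate number as a block it was 0.0756.

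Other members on this scale were Hsph1 at 0.45 (SE 0.300), Hspd1 at 0.27 (SE 0.152), Hsp90ab1 at 0.24 (SE 0.163) and Hspa8 at 0.21 (SE 0.156), with edgeR adjusted p of 0.297 to 0.433. Hspa1a and Hspa1b had −0.079 (SE 0.207) and −0.075 (SE 0.193), with edgeR adjusted p of 0.837 and 0.835. DESeq2 also called Hsp90aa1 higher (0.50, adjusted p = 0.0206), and limma voom called Hsp90aa1 (0.49, adjusted p = 0.0218) and Dnajb1 (0.62, adjusted p = 0.0195). EdgeR called Dnajb1 without HFD+MGIG 2 (0.61, adjusted p = 0.0340) and Hsp90aa1 with the median background subtracted (0.64, adjusted p = 0.0466). The sign thus differed between the scales for 7 of the 10 members, all but Hspa1a, Hspa1b and Hspb1.

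**Figure D3:**
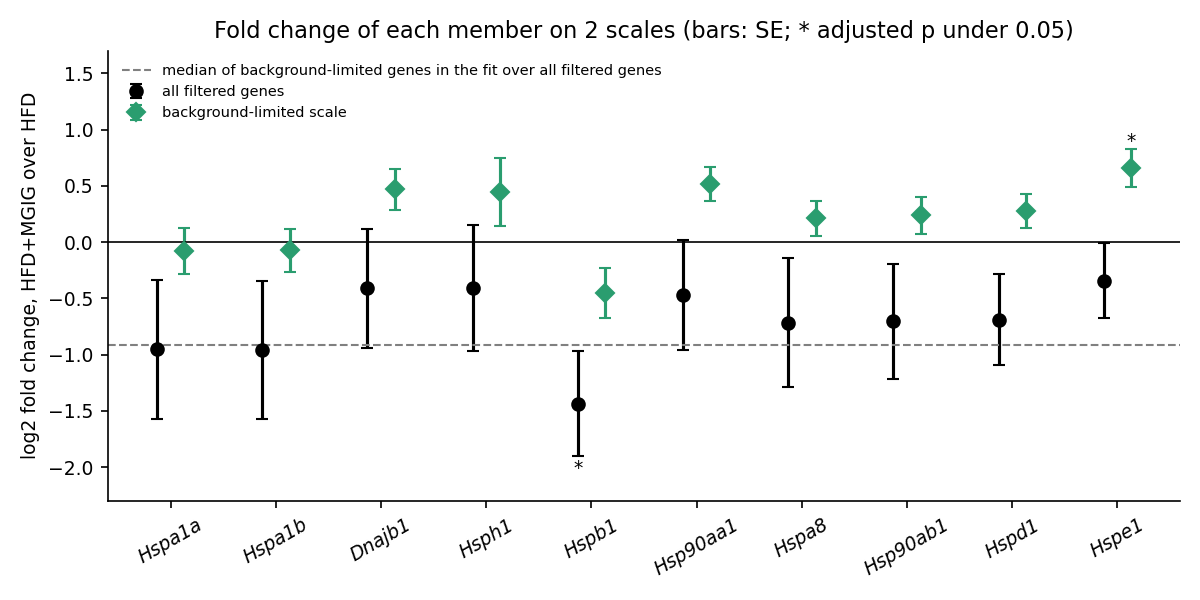
Log2 fold change of HFD+MGIG over HFD for each member in the fit over all filtered genes (black) and on the background-limited scale (green), with SE bars and an asterisk where a gene of that fit had an edgeR adjusted p under 0.05. The dashed line at −0.91 is the median of the background-limited genes in the first fit, and Hspb1 is the member lowest against it.

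Ratios between members within a library do not depend on the scale, and they set inducible against constitutive forms directly. Per kb of exon, the summed Hspa1a and Hspa1b level was 3.94, 4.30 and 3.54 times that of Hspa8 in HFD 1, 2 and 3 and 3.21, 2.55 and 3.71 times in HFD+MGIG 1, 2 and 3. The inducible HSP70 genes thus exceeded the constitutive one in all 6 libraries, and the groups overlapped through HFD+MGIG 3. The log2 ratio was 1.97 ± 0.139 in HFD and 1.64 ± 0.275 in HFD+MGIG (SD, n = 3), a difference of −0.33 (two-sided exact permutation p = 0.2, adjusted over 4 pairs 0.267). The size of the ratio depends on the length, here all annotated exons of a gene. For Hspa8 these cover 4301 bases, against 2394 in its longest protein-coding transcript. Without length scaling the mean log2 ratio was 1.39 in HFD and 1.06 in HFD+MGIG. Without HFD+MGIG 2 the difference was −0.18, and without HFD+MGIG 3 it was −0.45.

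For HSP90 the order was the other way, with the constitutive form above the inducible one. Hsp90aa1 had 0.728, 0.717 and 0.654 of the Hsp90ab1 level per kb in HFD and 0.799, 0.976 and 0.765 in HFD+MGIG. Every HFD+MGIG library lay above every HFD library, with HFD+MGIG 2 close to equal levels. The difference of the log2 ratio was 0.27 (two-sided exact permutation p = 0.1, adjusted over 4 pairs 0.267), and no smaller p is possible with 3 libraries a group. Without HFD+MGIG 2 it was 0.16. Hsp90aa1 shared 53.1% of its 75-base windows with pseudogenes and Hsp90ab1 0.736%, and with the 90th percentile background subtracted from both the difference was 0.26.

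Hsph1 lay far below its partner Hspa8 per kb, which was 25.4, 23.4 and 17.3 times as high in HFD and 16.3, 24.8 and 15.6 times in HFD+MGIG. The difference of the log2 ratio was 0.23 (two-sided exact permutation p = 0.3, adjusted 0.300), and −0.038 with the 90th percentile background subtracted. It was 0.12 without HFD 1, 0.40 without HFD 3, and 0.14, 0.44 and 0.11 without HFD+MGIG 1, 2 and 3. Hspd1 and Hspe1, which form 1 complex, had a ratio of levels per kb of 0.930, 1.00 and 1.22 on the diet alone, against 0.992, 0.703 and 0.757 with MGIG. The size of this ratio depends on the length used. All annotated exons cover 2642 and 1474 bases, and the longest protein-coding transcripts 2423 and 774. The difference of the log2 ratio was −0.37 (two-sided exact permutation p = 0.2, adjusted 0.267). None of the 4 ratios passed a threshold of 0.05 in a design that cannot go below 0.1.

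**Figure D4:**
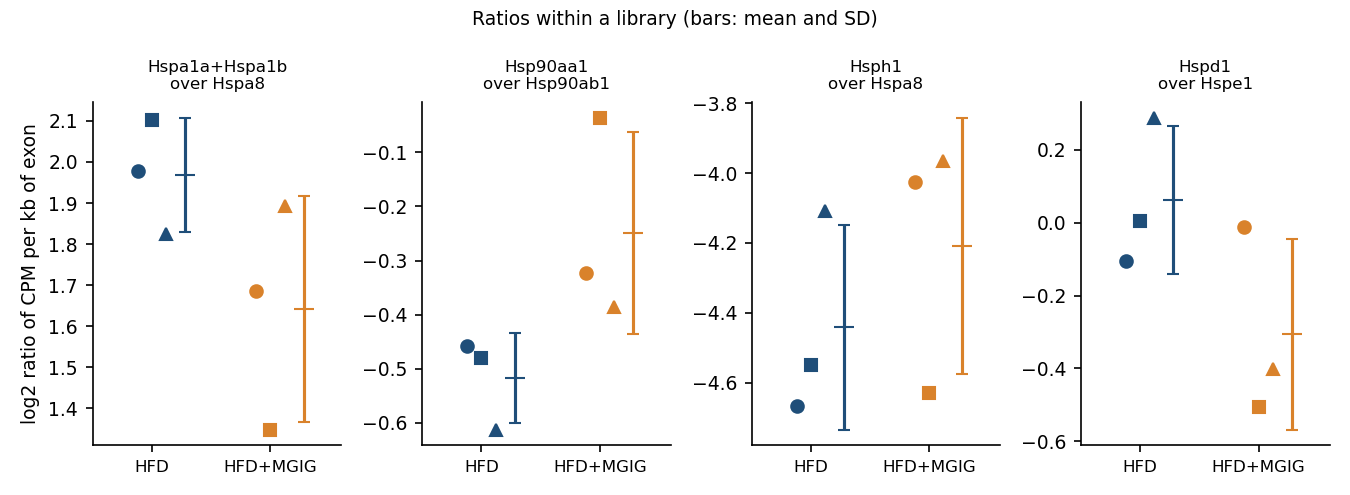
Log2 ratio of levels per kb of exon within each library for 4 pairs of members (blue HFD, orange HFD+MGIG; shapes give the replicate; bars are the mean and SD over 3 libraries). The panels have axes of their own; Hsp90aa1 over Hsp90ab1 is the pair whose groups do not overlap.

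Levels can be compared between genes only per length, here as CPM per kb of all annotated exons. That length can exceed the longest protein-coding transcript, with 4301 against 2394 bases for Hspa8 and 7266 against 3802 for Hsph1. For Hspa1a (2967 bases) and Hspa1b (2803 bases) the lengths were the same. The order and the gap between Hspa8 and the inducible pair therefore depend on the length used. In HFD the order was led by the inducible HSP70 pair. Hspa1b (2665 ± 184 CPM per kb) and Hspa1a (2522 ± 178) did not differ beyond their spread, and Hspa8 followed at 1334 ± 203. Hspb1 (615 ± 198) and Hsp90ab1 (394 ± 73.1) came next and overlapped, as did Dnajb1 (276 ± 39.1) and Hsp90aa1 (274 ± 34.0). Hsph1 (63.5 ± 23.4), Hspd1 (58.0 ± 9.62) and Hspe1 (55.2 ± 3.82) were lowest and overlapped each other. In HFD+MGIG the order was the same except that Hsp90ab1 (294 ± 98.8) stood above Hspb1 (275 ± 60.5) and Hspe1 (53.2 ± 10.7) above Hspd1 (43.8 ± 12.4).

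The wider chaperone network was taken from 8 lists of 90 genes, of which 85 passed the filter. In the fit over all filtered genes 35 of 85 fell and 3 rose, or 41.2% and 3.53%, beside 43.8% and 2.14% of the background-limited genes. Single lists had between 20% (heat shock factors and regulators) and 55.6% (other HSP70 and HSP110 genes) called lower, on both sides of that 43.8%. The median log2 fold change was −0.86, beside −0.91 for the background-limited genes and 0.38 for all genes tested. On the background-limited scale 39 of the genes were in the set, 0 were called by edgeR in either direction, and the median was 0.016. At an unadjusted p under 0.05, 1 was lower and 3 were higher. DESeq2 and limma voom called 2 and 1 of them higher there, and 0 lower. The count of 35 ranged from 12 without HFD+MGIG 3 to 54 without HFD+MGIG 2, beside 8.61% and 22.2% of all genes. It was 18, 15 and 15 without HFD 1, 2 and 3, beside 12.7%, 11% and 9.16% of all genes.

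Among the heat shock factors, Hsf1, the regulator of the inducible members, fell from 33.2 ± 0.884 to 20.5 ± 3.68 CPM (−0.98, SE 0.294, edgeR adjusted p = 0.0125). Its HFD+MGIG mean was below its bound of 42.2 CPM. Hsf2, a factor known from development and the testis, rose from 8.63 ± 0.571 to 77.1 ± 51.4 CPM (2.76, SE 0.378, edgeR adjusted p = 0.000146), with 136 CPM in HFD+MGIG 2 alone and a mean bound of 57.0 CPM. Of the other HSP70 genes 5 of 9 fell, among them Hspa12b, an HSP70 relative of endothelium, from 34.6 ± 4.28 to 9.39 ± 7.65 CPM (−2.09, edgeR adjusted p = 0.00283). Hspa2, a relative abundant in male germ cells, fell from 34.6 ± 0.938 to 18.7 ± 2.88 CPM (−1.18, edgeR adjusted p = 0.00401). In HFD+MGIG the mean of Hspa12b was below its bound of 21.9 CPM and that of Hspa2 above its bound of 15.7 CPM.

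Small heat shock proteins other than Hspb1 had 3 of 6 lower and 1 higher. Cryab, alpha B crystallin, a partner of HSP27 in muscle, had 55.7, 38.3 and 42.1 CPM on the diet alone, against 23.4, 19.0 and 20.6 CPM with MGIG (−1.40, SE 0.288, edgeR adjusted p = 0.00124). Like Hspb1 it was highest in HFD 1, its groups did not overlap, and its value on the background-limited scale was −0.42 (edgeR adjusted p = 0.297). Hspb11, which encodes a protein of ciliary transport rather than a chaperone, rose from 5.47 ± 1.08 to 33.1 ± 17.5 CPM (2.21, edgeR adjusted p = 0.000340), where its bound was 12.3 CPM.

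Co-chaperones fell in part over all filtered genes, and 0 were called by edgeR on the background-limited scale. Among 14 genes with a J domain, the part of HSP40 that stimulates HSP70, 5 fell. Dnajb5 had the smallest p and fell from 17.1 ± 0.936 to 7.08 ± 1.51 CPM (−1.55, edgeR adjusted p = 0.00201), below its bound of 35.2 CPM in HFD+MGIG. Dnajc5 fell from 131 ± 8.56 to 66.3 ± 24.97 CPM (−1.25, edgeR adjusted p = 0.0201). Of 9 exchange and adaptor genes 4 fell. Bag6, which shields membrane proteins in the cytosol, fell from 29.7 ± 3.00 to 13.5 ± 6.35 CPM (−1.38, edgeR adjusted p = 0.00758), below its bound of 36.9 CPM. Bag5 fell from 65.1 ± 3.04 to 34.7 ± 14.2 CPM (−1.17, edgeR adjusted p = 0.0187). Of 16 HSP90 co-chaperones 7 fell. Ppp5c, a phosphatase that binds HSP90, fell from 49.8 ± 5.88 to 20.5 ± 8.23 CPM (−1.53, edgeR adjusted p = 0.00304), with a bound of 18.6 CPM. Fkbp4, an immunophilin that links HSP90 to steroid receptors, fell from 63.2 ± 9.02 to 36.6 ± 7.72 CPM (−1.06, edgeR adjusted p = 0.0126). Dnajc5, Bag5 and Fkbp4 had −0.32, −0.25 and −0.097 on the background-limited scale, and Dnajb5, Bag6 and Ppp5c were not in the set.

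Among 14 genes encoding the cytosolic chaperonin TRiC and prefoldin 5 fell, among them Cct2, a TRiC subunit, from 70.4 ± 6.56 to 39.0 ± 9.12 CPM (−1.13, edgeR adjusted p = 0.0104). Vbp1, a prefoldin subunit, fell from 89.5 ± 4.52 to 54.2 ± 6.05 CPM (−1.03, edgeR adjusted p = 0.0155). Of 12 mitochondrial and endoplasmic reticulum chaperones 5 fell, among them Grpel1, the exchange factor of mitochondrial HSP70, from 49.4 ± 4.70 to 28.8 ± 5.01 CPM (−1.06, edgeR adjusted p = 0.00841). Lonp1, a protease of the mitochondrial matrix, fell from 36.8 ± 1.43 to 15.2 ± 9.28 CPM (−1.49, edgeR adjusted p = 0.0136), below its bound of 25.97 CPM. Cct2 and Vbp1 had −0.17 and −0.0070 on the background-limited scale, and Grpel1 and Lonp1 were not in the set.

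**Figure D5:**
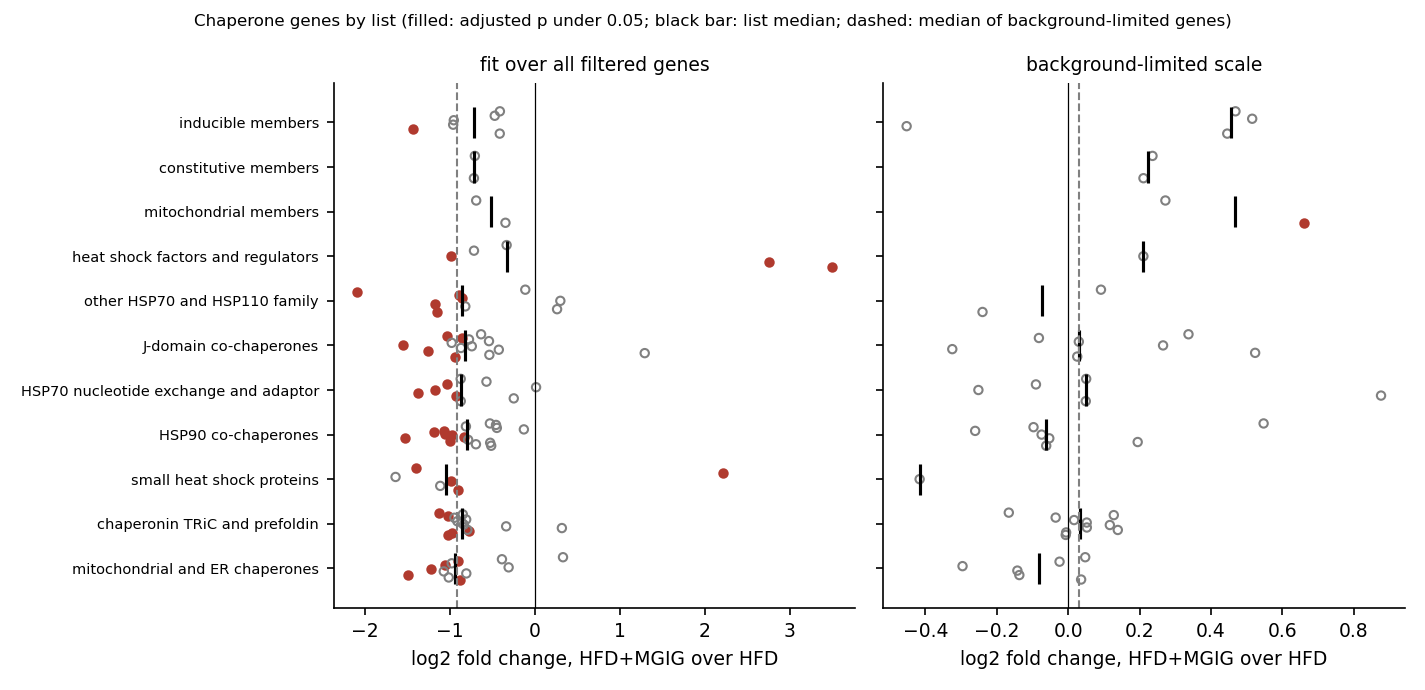
Log2 fold change of each tested gene of the 3 member groups and the 8 chaperone lists, in the fit over all filtered genes (left) and on the background-limited scale (right); filled points had an edgeR adjusted p under 0.05, black bars are list medians and dashed lines the median of the background-limited genes. In the left panel Hspb1 and the list genes that the text names as lower lie to the left of the dashed line at −0.91. Hsf2 and Hspb11, named as higher, lie to its right. In the right panel Hspe1 is the 1 filled point.

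Immediate early and other stress genes known from tissue dissociation were abundant beside the inducible members. The 21 of them that are not members summed to 40663 to 45607 CPM in HFD and to 33403, 13332 and 29821 CPM in HFD+MGIG 1, 2 and 3. In edgeR 5 of 21 fell over all filtered genes (Fosb, Egr2, Nr4a1, Socs3 and Klf4) and 3 of 16 on the background-limited scale (Fosb, Nr4a1 and Socs3), and 0 rose in either fit. These are 23.8% of the 21 beside 17.8% of all genes and 43.8% of background-limited genes, and 3 of 16 beside 6.13% of the set. The count of 5 was 18 without HFD+MGIG 2 and 3 without HFD+MGIG 3, 17 with DESeq2, 20 with limma voom and 1 with the median background subtracted. Of all genes 22.2%, 8.61%, 20.2%, 29.8% and 9.41% were called lower there, in the same order. The count of 3 was 0 without HFD 1 or HFD 2, 1 without HFD 3 or HFD+MGIG 1, and 2 without HFD+MGIG 3. Of the set 1.96%, 1.89%, 2.71%, 3.24% and 4.21% were called lower in those fits, in the same order. How far tissue handling enters the levels of the inducible members was not tested.

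The profiles most like those of 3 members were taken over the 6 libraries among 9893 protein-coding genes with a mean of at least 10 CPM, by Pearson's r of log2(CPM + 1). For Hspa1a they were Slc16a3, Grb2 and Ep300 (r from 0.998 to 1.00), for Hspa8 Xaf1, Nagpa and Galnt7 (r from 0.997 to 0.999) and for Hspb1 Mtx2, Efemp2 and Atp5g3 (r from 0.994 to 0.997). Such values were common among these libraries, which differ in depth and background: 1489, 673 and 325 genes had r above 0.95 with Hspa1a, Hspa8 and Hspb1.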

How the data were processed

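Adipose macrophage RNA was amplified from 10 ng with SMART-Seq v4 and sequenced, per the labels' protocols. The authors deposited estimated counts per gene. The submitters' processing notes name fastp, HISAT2, StringTie and the build mm10; the sources used here do not say how StringTie output became counts or whether strand was used. Estimated counts were rounded, and CPM used library totals. EdgeR 4.0.16 (R 4.3.3) ran its quasi-likelihood test with TMM factors, filterByExpr and Benjamini-Hochberg adjustment at a threshold of 0.05; the SE was taken from the fold change and F. Alternatives used DESeq2 1.42.0, limma 3.58.1, other filters and scales, background subtraction, a replicate block and leaving out each library. Gene models came from GENCODE M21, which held 51884 of the 57180 IDs. The fits were tested on simulated data that drew both groups from the HFD proportions. Those data lacked the HFD+MGIG reads on silent genes, so that test does not cover the shift of scale. Depth differed between the groups, so HFD+MGIG values carry more counting error. The members and lists were chosen with earlier results of these data known. Named besides the members were up to 2 genes per chaperone list with the smallest p at 10 CPM or more in the higher group, and the 3 nearest profiles of Hspa1a, Hspa8 and Hspb1. The 5 stress genes, the pseudogene and the genes of other types that share windows were named after their values were seen.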

Additional observations from a re-analysis of the deposited data

How the results depend on the processing

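Over all filtered genes, 1 member was called lower, beside 17.8% of all genes. Limma voom called 5 (29.8% of all genes) and subtraction of the median silent-family background 0 (9.41%). Leaving out 1 library gave 0 to 3 (8.61% to 22.2%). Subtracting that median turned the log2 fold change to 0.30 for Dnajb1, 0.26 for Hsph1, 0.28 for Hsp90aa1, 0.018 for Hspa8, 0.030 for Hsp90ab1, 0.011 for Hspd1 and 0.39 for Hspe1. Fitting only protein-coding genes outside the silent families turned it to 0.045 for Dnajb1, 0.041 for Hsph1, 0.020 for Hsp90aa1 and 0.16 for Hspe1, and a filter of 5 CPM in 3 libraries to 0.050 for Hspe1.

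On the background-limited scale, 1 member was called higher, beside 4.67% of the set. DESeq2 called 2 (7.16% of the set) and limma voom 3 (8.37%). Library totals (3.24%) and the 90th percentile background subtracted (0%) each gave 0. So did a background share of at most 0.1 (3.74%) and removal of GC and length trends (4.53%). Leaving out 1 library gave 0 to 1 (0.392% to 6.02%). The 90th percentile subtraction turned Hspb1 to 0.073 and the Hsph1 over Hspa8 log2 ratio difference to −0.038.

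Chaperone genes called lower over all filtered genes numbered 35; they were 17 with library totals, 61 with limma voom, 11 with the 5 CPM filter, 3 with the median background subtracted, 7 with protein-coding genes only, and 12 to 54 leaving out 1 library. In those alternatives, in that order, 10.5%, 29.8%, 10.6%, 9.41%, 8.86% and 8.61% to 22.2% of all genes were called lower. Chaperone genes called higher numbered 3, and 5 with protein-coding genes only, beside 43% and 25.7% of all genes. On the background-limited scale 0 were called higher by edgeR, 2 by DESeq2 and 1 by limma voom. The cause of these changes was not tested.

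Same-numbered libraries had correlations of deviations of 0.0864, 0.268 and 0.0909, and libraries of different number had −0.228 to 0.157. The numbers were not taken to pair the libraries. With the replicate block, 1 member was called lower over all filtered genes and 0 were called higher on the background-limited scale, where calls over the set went from 303 to 229. Among the values of single members over the alternatives, 240 kept direction and side of the threshold, 14 lost a call, 11 gained one and 13 turned. Depth limits genes near the bound in HFD+MGIG, where 1 count was worth 0.204 to 0.452 CPM.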
